A study of Capra hircus with 9 samples.

Results

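The proteasome subunits of the goat mammary gland are described here across 3 physiological stages. The members are the 49 transcripts that the authors' KEGG pathway table lists under Proteasome, of 9131 transcripts in their table of differential expression, and they were split into the core particle, the regulatory particle and the associated factors by their annotation text. The core particle had 20 transcripts, the regulatory particle 20, and the activators, the inhibitor PI31 and the maturation protein POMP had 9 together. The 49 transcripts came from 44 assembled components (groups of related sequences, by the form of their identifiers) and described 40 subunits. A constitutive catalytic subunit, beta 1 (PSMB6), has a transcript among the 51299 transcripts listed. It is absent from the 9131 transcripts with stage means, so no level of it can be given.

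Mammary gland RNA of Xinong Saanen goats, a dairy breed, was sequenced in single 36-base reads after poly-A selection. Dry-off glands were represented by 3 samples taken at day 310 postpartum, non-lactation glands by 3 samples of goats that neither gave milk nor were pregnant, and lactation glands by 3 samples taken at day 100 postpartum. No treatment or genetic change is named, and separate goats are not named for the samples, so the p-values speak at most for these samples. The authors' test is not stated, so which spread the p-values measure is not known. The title of the series names the gene networks of fatty acid metabolism during lactation as its subject. The deposited values were the authors' mean RPKM of each stage (reads scaled by transcript length and by the reads of the sample) with a p-value and a false discovery rate (FDR) for each pair of stages, so no spread between samples and no depth can be given.

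The proteasome is the protease that degrades proteins tagged with ubiquitin. Its barrel-shaped core is closed by outer rings of alpha subunits, which gate the entrance, and holds its protease sites in inner rings of beta subunits, of which only some are catalytic. The regulatory particle on the end of the core recognises ubiquitin, removes it and unfolds the protein with a ring of ATPases. In cells exposed to interferon and in many immune cells, inducible beta subunits replace the catalytic ones during assembly, which gives the immunoproteasome, known for making peptides for MHC class I. The mammary gland at dry-off is a tissue in which milk secretion stops and the epithelium is remodelled.

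Some facts of the whole table bear on each value. A p-value under 0.05 in some pair of stages was listed for 93.8% of its transcripts and for 48 of the 49 members, so the table is not a sample of all transcripts. The LALBA and GLYCAM1 transcripts, both of milk proteins, made up 0.523% of the table's summed mean RPKM in dry-off, 21.5% in non-lactation and 49.9% in lactation, and RPKM is a share of all reads. The median log2 ratio of dry-off over lactation was 2.09 over the 8932 transcripts with a ratio and 1.00 over 44 cytosolic ribosomal protein transcripts. In tissue RNA, fewer cells of a type and less RNA per cell cannot be told apart.

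In dry-off against lactation, 46 of the 49 proteasome transcripts rose and 0 fell at an FDR under 0.05 in the authors' deposited table. The background of higher calls in this comparison was 65.9% of all transcripts tested, and 71.0% among transcripts averaging at least 10 RPKM over the stages, while 0.69% of all were lower. By the deposited FDR under 0.01, 13 of 49 were higher (background 16.4%), and at an unadjusted p under 0.05 48 of 49 (background 86.9%) and 0 were lower (background 1.29%). A mean at least 2-fold higher was listed for 47 of 49 (background 90.9%), of which 44 also passed the FDR of 0.05 (background 63.5%). The core particle had 18 of 20 transcripts higher at that FDR, the regulatory particle 19 of 20 and the associated factors 9 of 9. The size of the rise was smaller than that of most transcripts: the median log2 ratio of the members was 1.82, and 28 of the 40 subunits lay below the table median of 2.09. Of the 46 transcripts that rose, 14 were above and 32 below the table median, whereas 44 were above and 2 below the ribosomal protein median. The direction therefore flips for most constitutive subunits when ratios are centred on the table, while the 3 inducible beta subunits stayed above both medians. PSMA1, PSMA5, PSMB3, PSMC4, PSMD1, PSMD14, PSME1, PSME2 and PSME4 also stayed above both. All 49 members were highest in dry-off, intermediate in non-lactation and lowest in lactation, an order that 91.1% of all transcripts showed.

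**Figure D1:**
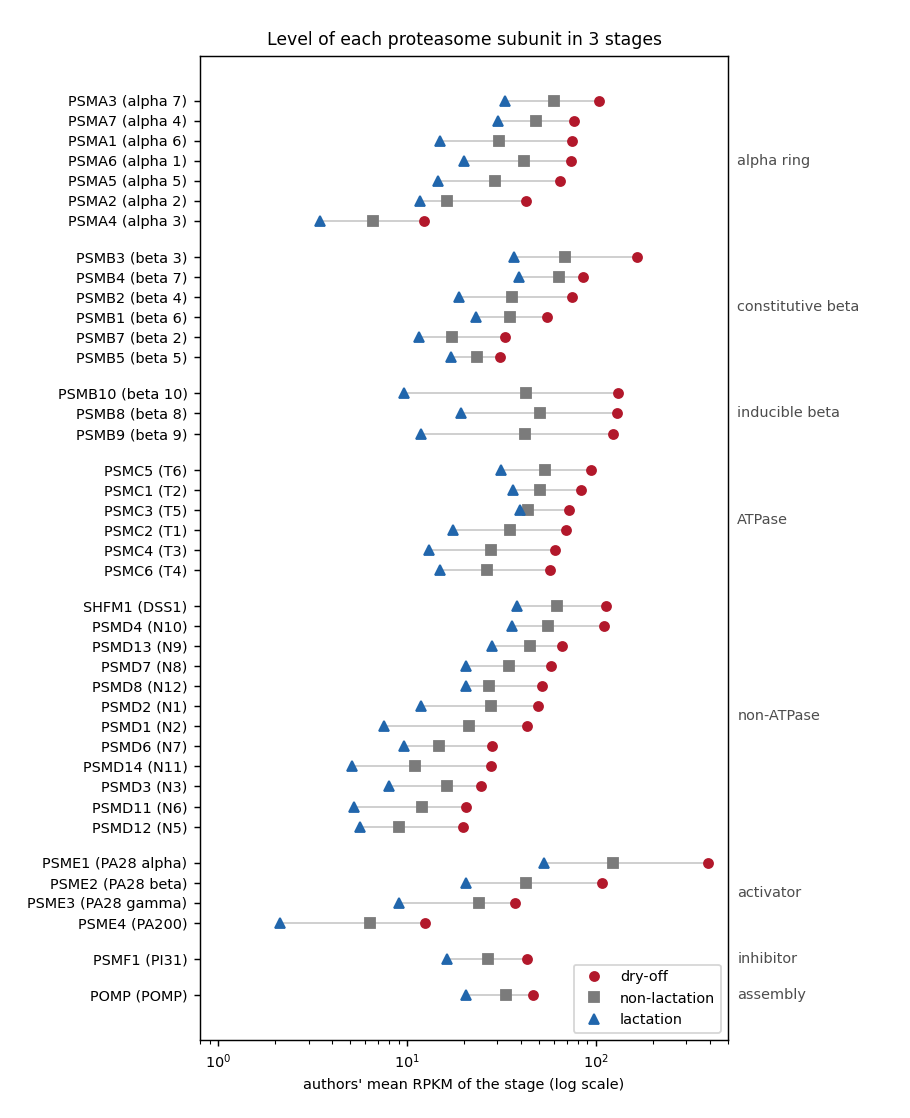
Authors' mean RPKM of each stage (log scale) for 40 proteasome subunits, grouped by ring or role, with the most abundant transcript of each subunit. Circles are dry-off, squares non-lactation and triangles lactation, and the lines join the stages of a subunit. The inducible subunits PSMB10, PSMB8 and PSMB9 lie between 123.4 and 130.5 RPKM in dry-off and between 9.55 and 19.3 RPKM in lactation.

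The inducible beta subunits had the largest differences of the core particle. PSMB10, which replaces the trypsin-like subunit PSMB7, had an authors' mean of 130.5 RPKM in dry-off, 42.5 RPKM in non-lactation and 9.55 RPKM in lactation. PSMB9, which replaces PSMB6, had 123.4 RPKM in dry-off, 42.1 RPKM in non-lactation and 11.8 RPKM in lactation. PSMB8, which replaces the chymotrypsin-like subunit PSMB5, had 129.7 RPKM in dry-off, 50.7 RPKM in non-lactation and 19.3 RPKM in lactation. The 3 subunits were thus nearly equal in dry-off, where the highest level was 1.06 times the lowest, against 1.20 times in non-lactation and 2.02 times in lactation. In the authors' deposited table PSMB10 rose 13.7-fold (log2 3.77, FDR 0.00276) in dry-off against lactation. PSMB9 rose 10.5-fold (log2 3.39, FDR 0.00720) and PSMB8 6.72-fold (log2 2.75, FDR 0.00257) in the same deposited table. By the level of the most abundant transcript of each subunit, PSMB10, PSMB8 and PSMB9 ranked 3, 4 and 5 of 40 in dry-off. In lactation they ranked 32, 18 and 28.

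The constitutive catalytic subunits differed much less. PSMB5 had 31.0 RPKM in dry-off, 23.5 RPKM in non-lactation and 17.1 RPKM in lactation, a 1.81-fold rise in dry-off against lactation (log2 0.86, FDR 0.0176 in the authors' deposited table). That was the smallest ratio of all members, and PSMB5 lay below lactation when centred on the table median or on the ribosomal protein median. PSMB7 had 32.9 RPKM in dry-off, 17.3 RPKM in non-lactation and 11.5 RPKM in lactation and rose 2.86-fold (log2 1.51, FDR 0.0434 in the authors' deposited table) and lay under the table median. The ratio of PSMB8 to PSMB5, the subunits that compete for the same site, was 4.18 in dry-off, 2.15 in non-lactation and 1.13 in lactation. The ratio of PSMB10 to PSMB7 was 3.96 in dry-off, 2.45 in non-lactation and 0.829 in lactation. Such ratios within a stage do not depend on the scaling between stages. They changed 3.70-fold and 4.78-fold between dry-off and lactation, and no test of these ratios was possible from stage means.

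The structural beta subunits, which carry no protease site in the mature core, ranged more widely. PSMB3 had 165.2 RPKM in dry-off, 68.3 RPKM in non-lactation and 36.9 RPKM in lactation and rose 4.48-fold (log2 2.16, FDR 0.00467 in the authors' deposited table), slightly above the table median. PSMB2 had 74.8, 35.8 and 18.8 RPKM in dry-off, non-lactation and lactation. PSMB1 had 54.8, 34.8 and 23.0 RPKM in dry-off, non-lactation and lactation. Both rose, with log2 ratios of 1.99 (FDR 0.0205) and, for PSMB1, 1.25 (FDR 0.0223) in the authors' deposited table, under the median of the table and above the ribosomal one. The more abundant transcript of PSMB4 had 85.3 RPKM in dry-off, 63.4 RPKM in non-lactation and 39.0 RPKM in lactation (log2 1.13, FDR 0.0399 in the authors' deposited table). Its second transcript, of the same component, had 68.2, 54.4 and 32.2 RPKM in dry-off, non-lactation and lactation with an FDR of 0.103 in the authors' deposited table. Relative to the median of the 6 constitutive beta subunits, PSMB10 was at 2.01 times in dry-off and 0.457 times in lactation, and PSMB8 at 2.00 times in dry-off and 0.924 times in lactation.

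In the alpha ring, whose subunits form the gate and the docking surface for activators, 9 of 10 transcripts rose in dry-off against lactation (background 65.9%). PSMA1 had 74.2 RPKM in dry-off, 30.8 RPKM in non-lactation and 14.9 RPKM in lactation, the largest ratio of the ring (log2 2.31, FDR 0.0217 in the authors' deposited table). PSMA7 had 76.7 RPKM in dry-off, 47.8 RPKM in non-lactation and 30.2 RPKM in lactation, the smallest ratio (log2 1.34, FDR 0.00693 in the authors' deposited table). The 2 subunits thus had similar levels in dry-off, with PSMA1 at 0.966 times the level of PSMA7, but in lactation PSMA1 was at 0.493 times. PSMA3 had the highest level of the ring, with 103.7 RPKM in dry-off, 59.6 RPKM in non-lactation and 32.9 RPKM in lactation (log2 1.66, FDR 0.0264 in the authors' deposited table). PSMA5 had 64.2 RPKM in dry-off, 29.3 RPKM in non-lactation and 14.6 RPKM in lactation (log2 2.13, FDR 0.00893 in the authors' deposited table). PSMA1 and PSMA5 lay above the table median and the other 7 transcripts that rose below it, all 9 being above the ribosomal protein median. PSMA6 rose with a log2 ratio of 1.87 (FDR 0.0222 in the authors' deposited table) and lay under the table median.

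PSMA2 and PSMA4 each had several transcripts of 1 component, which share most of their sequence, so that reads of 36 bases can be counted to any of them. The more abundant transcript of PSMA2 had 42.7 RPKM in dry-off, 16.2 RPKM in non-lactation and 11.7 RPKM in lactation (log2 1.87, FDR 0.00809 in the authors' deposited table). Its non-lactation level was closer to lactation than to dry-off, with a log2 ratio over lactation of 0.47 and an unadjusted p of 0.311 in the authors' deposited table. PSMA4 was the least abundant alpha subunit by its best transcript, with 12.2 RPKM in dry-off, 6.60 RPKM in non-lactation and 3.46 RPKM in lactation, and an FDR of 0.0584 in the authors' deposited table. The other PSMA4 transcripts rose with log2 ratios of 1.99 (FDR 0.0436) and 1.84 (FDR 0.0373) in the deposited table of the authors, under the table median.

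The ATPase ring of the regulatory particle, which unfolds substrates and opens the gate, had 6 of 7 transcripts higher in dry-off than in lactation (background 65.9%). PSMC4 had 60.9 RPKM in dry-off, 27.8 RPKM in non-lactation and 13.01 RPKM in lactation, the largest ratio (log2 2.23, FDR 0.0245 in the authors' deposited table) and the only one of the ring above the table median. PSMC3 had 71.8 RPKM in dry-off, 43.6 RPKM in non-lactation and 39.5 RPKM in lactation, the smallest ratio (log2 0.86, FDR 0.0368 in the authors' deposited table). Its direction flips when centred on the table median or on the ribosomal protein median. By the most abundant transcript of each subunit, PSMC3 ranked 2 of the 40 subunits in lactation and 17 in dry-off.

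Among the other ATPases, PSMC5 had the highest mean over the stages, with 94.5 RPKM in dry-off, 53.7 RPKM in non-lactation and 31.5 RPKM in lactation (log2 1.59, FDR 0.0171 in the authors' deposited table). PSMC1 had 82.8, 50.5 and 36.4 RPKM in dry-off, non-lactation and lactation (log2 1.18, FDR 0.0252 in the authors' deposited table). PSMC2 had 69.7, 34.9 and 17.5 RPKM in dry-off, non-lactation and lactation (log2 1.99, FDR 0.0140 in the authors' deposited table). These 3 lay below the table median. PSMC6 had 2 components: the more abundant had 56.8 RPKM in dry-off, 26.3 RPKM in non-lactation and 14.96 RPKM in lactation (FDR 0.0187 in the authors' deposited table). The other had 12.6, 8.57 and 5.73 RPKM in dry-off, non-lactation and lactation with an FDR of 0.0935 in the authors' deposited table. The 6 ATPases take 1 place each in the ring, and their highest level was 1.66 times their lowest in dry-off, 2.04 times in non-lactation and 3.03 times in lactation. The levels of the ATPase ring were thus closest to each other in dry-off. The alpha ring had 8.50, 9.04 and 9.50 times and the non-ATPase subunits 5.73, 6.86 and 7.42 times in dry-off, non-lactation and lactation. For the 6 constitutive beta subunits the same measure ran the other way, with 5.33 times in dry-off, 3.94 times in non-lactation and 3.39 times in lactation. The measure takes only the most abundant transcript of each subunit. It leaves out the second PSMB4 transcript (68.2, 54.4 and 32.2 RPKM in dry-off, non-lactation and lactation), so the beta direction depends on that choice. None of these differences could be tested.

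The non-ATPase subunits of the regulatory particle include its scaffold, its ubiquitin receptors and its deubiquitinase. They had 13 of 13 transcripts higher in dry-off than in lactation (background 65.9%), 2 above the table median and 11 below it. PSMD1, a scaffold subunit, had 43.3 RPKM in dry-off, 21.2 RPKM in non-lactation and 7.52 RPKM in lactation, the largest ratio (log2 2.53, FDR 0.00454 in the authors' deposited table). PSMD14, the deubiquitinase that cuts ubiquitin chains off substrates, had 27.8 RPKM in dry-off, 11.03 RPKM in non-lactation and 5.12 RPKM in lactation (log2 2.44, FDR 0.0209 in the authors' deposited table). Both lay above the table median. PSMD2, the other large scaffold subunit, had 49.5 RPKM in dry-off, 27.9 RPKM in non-lactation and 11.8 RPKM in lactation (log2 2.06, FDR 0.00346 in the authors' deposited table), just below that median.

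PSMD13, a lid subunit, had the smallest ratio of this group, with 65.9 RPKM in dry-off, 44.6 RPKM in non-lactation and 28.2 RPKM in lactation (log2 1.23, FDR 0.0118 in the authors' deposited table). SHFM1 (DSS1), a small lid subunit that the authors' table also lists under homologous recombination, had the highest level, with 112.8 RPKM in dry-off, 62.3 RPKM in non-lactation and 38.0 RPKM in lactation (FDR 0.0480 in the authors' deposited table). PSMD4, a ubiquitin receptor, had 109.9 RPKM in dry-off, 55.7 RPKM in non-lactation and 35.7 RPKM in lactation (log2 1.62, FDR 0.00622 in the authors' deposited table). All 3 lay below the table median and above the ribosomal one. PSMD3 had 2 components, and the more abundant had 24.7 RPKM in dry-off, 16.2 RPKM in non-lactation and 7.96 RPKM in lactation (FDR 0.0258 in the authors' deposited table). The other PSMD3 component had 5.41, 4.47 and 2.20 RPKM in dry-off, non-lactation and lactation (FDR 0.0286 in the authors' deposited table). The lid subunits PSMD6, PSMD7, PSMD8, PSMD11 and PSMD12 also rose and lay below the table median, with log2 ratios of 1.56, 1.49, 1.34, 1.97 and 1.82.

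The activators, which bind the core in place of the regulatory particle, had 6 of 6 transcripts higher in dry-off than in lactation (background 65.9%). PSME1 (PA28 alpha), an interferon-inducible activator that forms a ring with PSME2, had 391.9 RPKM in dry-off, 123.0 RPKM in non-lactation and 53.0 RPKM in lactation. That was the highest level of a single member transcript in each stage. The 2 PSMB4 transcripts, with 39.0 and 32.2 RPKM in lactation, were not added together for this ranking. PSME1 rose 7.39-fold (log2 2.89, FDR 0.0134 in the authors' deposited table). PSME2 (PA28 beta) had 107.8 RPKM in dry-off, 42.8 RPKM in non-lactation and 20.3 RPKM in lactation (log2 2.41, FDR 0.0139 in the authors' deposited table). The ratio of PSME1 to PSME2, partners in 1 ring, was 3.63 in dry-off, 2.87 in non-lactation and 2.61 in lactation. PSME3 (PA28 gamma), the nuclear activator that is not induced by interferon, had 37.3 RPKM in dry-off, 23.9 RPKM in non-lactation and 9.06 RPKM in lactation (log2 2.04, FDR 0.00582 in the authors' deposited table), just below the table median. The ratio of PSME1 to PSME3 was 10.5 in dry-off, 5.14 in non-lactation and 5.85 in lactation.

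PSME4 (PA200), a single-chain nuclear activator, was assembled in 3 components, which may be pieces of 1 long transcript. The most abundant had 12.5 RPKM in dry-off, 6.36 RPKM in non-lactation and 2.12 RPKM in lactation (log2 2.55, FDR 0.0229 in the authors' deposited table). The least abundant had 3.90, 2.64 and 0.320 RPKM in dry-off, non-lactation and lactation, and its log2 ratio of 3.61 (FDR 0.0226 in the authors' deposited table) rests on a low lactation mean. The third component had a log2 ratio of 2.56 (FDR 0.0107 in the authors' deposited table), and all 3 lay above the table median.

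PSMF1 (PI31), first described as an inhibitor of the core, had 42.8 RPKM in dry-off, 26.7 RPKM in non-lactation and 16.2 RPKM in lactation (log2 1.40, FDR 0.0233 in the authors' deposited table). POMP, the chaperone that brings core precursors together, had 46.6 RPKM in dry-off, 33.4 RPKM in non-lactation and 20.3 RPKM in lactation (log2 1.20, FDR 0.0395 in the authors' deposited table). Both rises were smaller than the table median and larger than the ribosomal one.

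**Figure D2:**
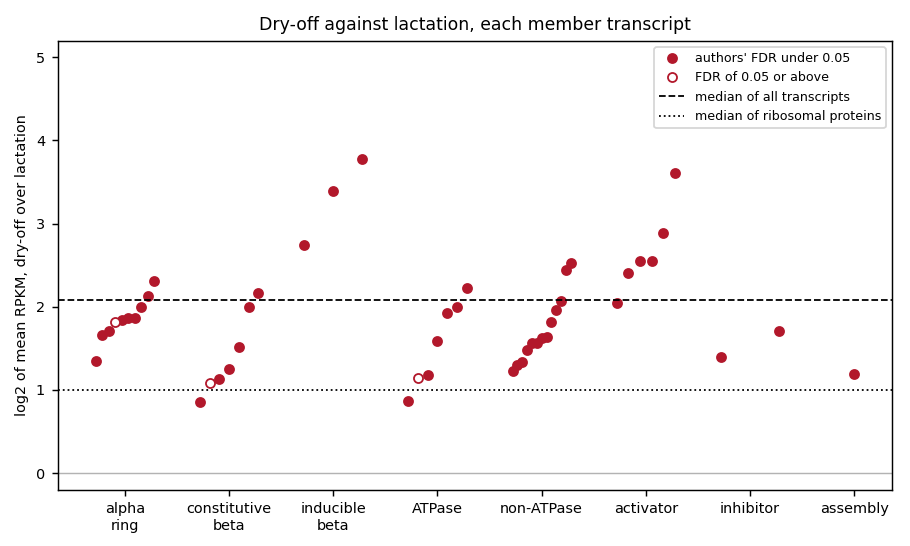
Log2 ratio of the authors' mean RPKM in dry-off over lactation for each of the 49 member transcripts, grouped by ring or role. Filled points had an FDR under 0.05 in the authors' deposited table and open points did not. The dashed line is the median of all transcripts (2.09) and the dotted line that of ribosomal proteins (1.00); the 3 inducible beta transcripts lie above both, and most others lie between them.

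As shares of the table's summed mean RPKM without the LALBA and GLYCAM1 transcripts, most rings kept similar values. The 6 constitutive beta subunits held 0.173% in dry-off, 0.156% in non-lactation and 0.175% in lactation. The 6 ATPases held 0.170% in dry-off, 0.152% in non-lactation and 0.183% in lactation. The 12 non-ATPase subunits held 0.238% in dry-off, 0.216% in non-lactation and 0.234% in lactation. The 7 alpha subunits held 0.174% in dry-off, 0.149% in non-lactation and 0.153% in lactation. On this scale these 4 rings differed by between 0.928 and 1.14 times in dry-off over lactation. The 3 inducible beta subunits held 0.149% in dry-off, 0.0867% in non-lactation and 0.0486% in lactation, a ratio of 3.07 in dry-off over lactation. PSME1 and PSME2 together held 0.194% in dry-off, 0.106% in non-lactation and 0.0878% in lactation, a ratio of 2.21. The 44 ribosomal protein transcripts, which gave the smaller of both reference medians, held 20.3% in dry-off, 21.7% in non-lactation and 31.3% in lactation.

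**Figure D3:**
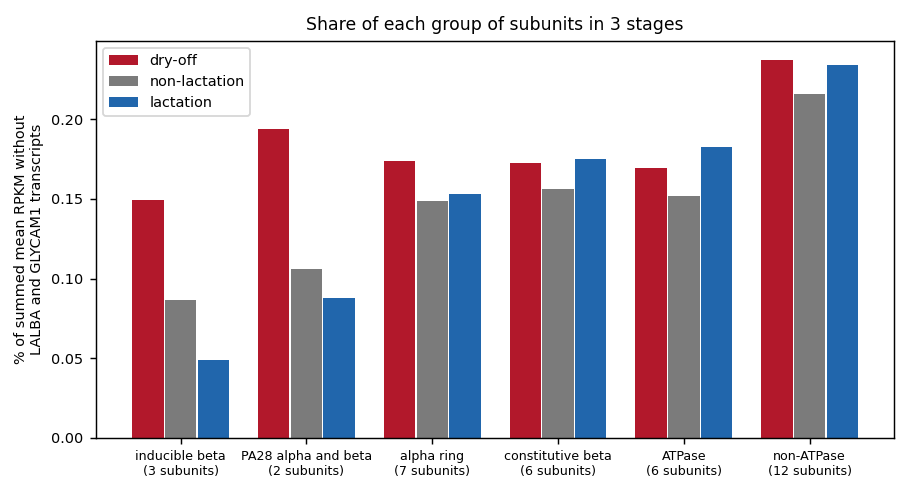
Share of the summed mean RPKM of the table, without the LALBA and GLYCAM1 transcripts, held by each group of proteasome subunits, with 1 transcript per subunit. Bars are dry-off, non-lactation and lactation from left to right. The inducible beta subunits and PA28 alpha and beta have their highest share in dry-off (0.149% and 0.194%), while the ATPase share is 0.170% in dry-off and 0.183% in lactation.

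In non-lactation against lactation, 0 of the 49 proteasome transcripts passed an FDR under 0.05 in the authors' deposited table, where 0.011% of all transcripts tested were higher. At an unadjusted p under 0.05 in that table, 15 of 49 members (background 41.5%) had higher means and 0 (background 0.274%) had lower means. The median log2 ratio of the members was 0.88, below the table median of 1.39. The members below that p were PSME3, PSMD1, 2 of the 3 PSME4 components, PSMA1, PSMA6, PSMA7, PSMC2, PSMC4, PSMC5, PSMD2, PSMD6, PSMD11, PSMD13 and SHFM1. The inducible subunits had larger ratios than most of these, with larger p-values. PSMB10, PSMB9 and PSMB8 had log2 ratios of 2.15, 1.84 and 1.39 with unadjusted p-values of 0.241, 0.350 and 0.380 in the authors' deposited table. PSMD1 had a log2 ratio of 1.498 with an unadjusted p of 0.00217, and PSME3 1.40 with 0.00152, in the authors' deposited table. PSMC3 had the smallest log2 ratio, 0.14, with an unadjusted p of 0.585 in the authors' deposited table.

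**Figure D4:**
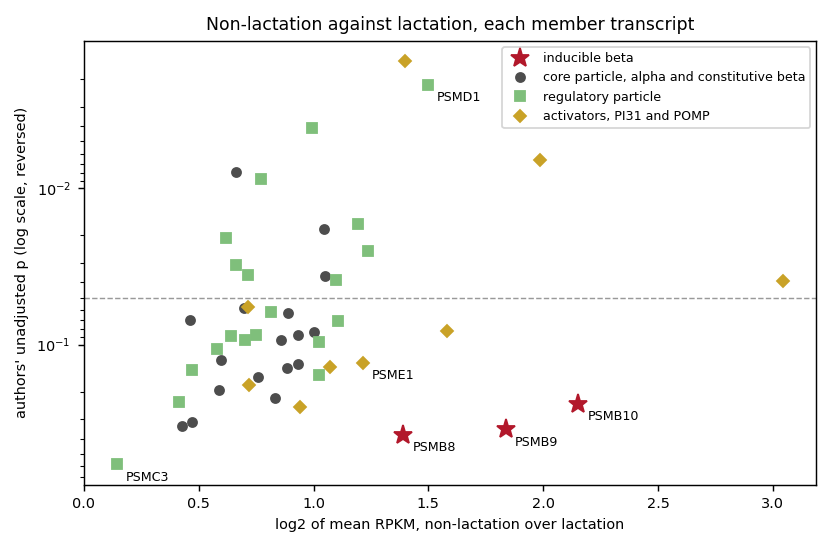
Log2 ratio of the authors' mean RPKM in non-lactation over lactation (horizontal) against the authors' unadjusted p (vertical, log scale, reversed) for each of the 49 member transcripts, with the dashed line at 0.05. Stars are the inducible beta subunits, which lie at log2 ratios from 1.39 to 2.15 and p-values from 0.241 to 0.380, below the dashed line.

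In non-lactation against dry-off, 0 of the 49 members passed an FDR under 0.05 in the authors' deposited table, as did 0.0% of all transcripts, and the lowest FDR of a member was 0.154. At an unadjusted p under 0.05 in that table, 38 of 49 members (background 38.5%) had lower means in non-lactation. The median log2 ratio of the members was −0.88 and that of the table −0.70. This comparison and the one before it share the non-lactation samples, and both use samples of the first comparison. PSME1 had the lowest ratio (log2 −1.67, unadjusted p 0.00268), followed by PSMB10 (−1.62, unadjusted p 0.0458) and PSMB9 (−1.55, unadjusted p 0.0833) in the authors' deposited table. PSMB5 had a log2 ratio of −0.40 (unadjusted p 0.0484) and PSMB4 −0.43 (unadjusted p 0.0930) in the authors' deposited table. The ratio of PSME1 to PSME3 was thus higher in dry-off, while in non-lactation it was near its lactation value.

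Other genes of the ubiquitin system and partners of the proteasome are reported from a list of 30 genes or gene families, of which 11 matched 1 gene by description. In dry-off against lactation 10 of these 11 rose (background 65.9%) and 0 fell (background 0.69%) at the authors' deposited FDR under 0.05. Their median log2 ratio was 1.92, below the table median of 2.09, and the range was 0.91 to 2.66. UBA1, the main ubiquitin-activating enzyme, had 38.2 RPKM in dry-off, 21.9 RPKM in non-lactation and 9.42 RPKM in lactation (FDR 0.0385 in the authors' deposited table). USP14, the deubiquitinase bound to the regulatory particle, had 15.1 RPKM in dry-off, 6.42 RPKM in non-lactation and 2.38 RPKM in lactation (log2 2.66, FDR 0.0222 in the authors' deposited table), above the table median. UCHL5, the other deubiquitinase that docks there, had a log2 ratio of 1.07 (FDR 0.0270 in the authors' deposited table) and lay under the table median. ECM29, which tethers core and regulatory particle, had 28.2 RPKM in dry-off, 13.4 RPKM in non-lactation and 6.93 RPKM in lactation (log2 2.03, FDR 0.0146 in the authors' deposited table), just under it like UBA1 (log2 2.02). PSMG2, a chaperone of alpha ring assembly, had 10.8, 7.05 and 4.95 RPKM in dry-off, non-lactation and lactation with an FDR of 0.102 in the authors' deposited table. A transcript described as nuclear factor erythroid 2-related factor 1 or 3, a family whose first member drives proteasome genes in mouse and human cells, had 23.2 RPKM in dry-off, 7.45 RPKM in non-lactation and 1.41 RPKM in lactation (log2 4.05, FDR 0.0272 in the authors' deposited table).

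Genes of antigen processing were read beside the inducible subunits. In the goat RefSeq annotation (assembly ARS1.2) PSMB9, TAP1, PSMB8 and TAP2 follow each other among protein-coding genes, and only EMC9 stands between PSME1 and PSME2. Of 11 antigen processing genes 9 matched, of which 8 rose in dry-off against lactation (background 65.9%). The median log2 ratio of the 9 was 3.02, against 2.09 over the table. TAP2, of the peptide transporter, had 15.2 RPKM in dry-off, 6.77 RPKM in non-lactation and 1.69 RPKM in lactation (log2 3.17, FDR 0.0332 in the authors' deposited table). TAP1 transcripts shared an assembled component with TAP2, so they can share reads, and the most abundant had a log2 ratio of 3.50 (FDR 0.0386 in the authors' deposited table). TAPBP (tapasin) had 143.7 RPKM in dry-off, 63.6 RPKM in non-lactation and 17.8 RPKM in lactation (log2 3.02, FDR 0.0234 in the authors' deposited table). PDIA3 had a log2 ratio of 2.50 (FDR 0.00964 in the authors' deposited table). CANX rose less (log2 1.57, FDR 0.00906 in the authors' deposited table) and lay below the table median. The median of the list also counts CD74 (log2 3.94) and CIITA (log2 4.23), both of MHC class II, and RFX5 (log2 2.79). CALR, the chaperone calreticulin, had 767.5, 373.5 and 166.9 RPKM in dry-off, non-lactation and lactation with an FDR of 0.102 in the authors' deposited table.

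Of 6 interferon response genes 4 matched, of which 2 (IRF7 and IRF8) rose in dry-off against lactation (background 65.9%). The median log2 ratio of the 4 was 3.36, against 2.09 over the table. IRF8, a transcription factor of myeloid and B cells, had 19.6 RPKM in dry-off, 11.2 RPKM in non-lactation and 1.58 RPKM in lactation (log2 3.63, FDR 0.0301 in the authors' deposited table). IRF1, which binds the promoters of inducible subunits in mouse and human cells, had 82.0, 22.9 and 4.71 RPKM in dry-off, non-lactation and lactation with an FDR of 0.0687 in the authors' deposited table. ISG15, a ubiquitin-like modifier, had 28.3, 8.57 and 3.32 RPKM in dry-off, non-lactation and lactation with an FDR of 0.111 in the authors' deposited table. All 4 genes were highest in dry-off and lowest in lactation, an order that 91.1% of all transcripts showed.

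Markers of cell types in the gland, among them immune cells, which carry immunoproteasomes, were read beside the subunits. The share of all transcripts higher in dry-off than in lactation, 65.9%, is the background of the counts that follow. Of 10 macrophage markers 8 matched and 6 rose in dry-off against lactation by the deposited FDR. The summed authors' means of the 8 were 726.9 RPKM in dry-off, 297.4 RPKM in non-lactation and 79.4 RPKM in lactation. C1QA alone had 288.3, 111.4 and 24.4 RPKM of these sums. CD14 rose with a log2 ratio of 1.72, below the table median, and the other matched macrophage markers lay above it. Of 8 T and NK cell markers 5 matched and 3 rose, with sums of 239.4, 85.0 and 14.2 RPKM in dry-off, non-lactation and lactation. Of 4 B cell markers 3 matched and 1 rose, with sums of 43.6, 13.8 and 2.60 RPKM in dry-off, non-lactation and lactation. The 2 luminal epithelial markers matched, CDH1 and EPCAM, summed to 131.3, 99.5 and 47.7 RPKM in dry-off, non-lactation and lactation, and CDH1 rose (log2 2.67, above the table median), while EPCAM had a log2 ratio of 1.04 (FDR 0.0682 in the authors' deposited table). Among transcripts with family descriptions on that list, the keratin one read for KRT8 rose (log2 2.87), the one read for KRT18 had a log2 ratio of 1.46 (FDR 0.0680), and the E74-like factor 3/5 one fell (log2 −1.72, FDR 0.0314), in the authors' deposited table. The 4 fibroblast markers summed to 1692, 1045 and 224.3 RPKM in dry-off, non-lactation and lactation, and 3 rose. Of the 3 endothelial markers 1 rose, with sums of 124.2, 85.6 and 21.3 RPKM in dry-off, non-lactation and lactation. The 5 milk secretion markers matched all fell, with sums of 1192 RPKM in dry-off, 37298 RPKM in non-lactation and 72885 RPKM in lactation. CD74, the MHC class II invariant chain, had 2004, 588.5 and 130.9 RPKM in dry-off, non-lactation and lactation (log2 3.94). No matched marker was listed at 0 in lactation. The part of these cell types in the levels of any proteasome subunit was not tested.

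The authors also sorted transcripts by the shape of their means over the stages. Of the 49 members 42 (85.7%) were in the profile numbered 14, which held 57.6% of the table and in which every transcript was highest in dry-off and lowest in lactation. Profile 11, in which non-lactation lies nearer to dry-off, held 28.6% of the table and 3 members, which were 2 PSME4 components and the less abundant PSMD3 component. Profile 10, in which non-lactation lies nearer to lactation, held 1.56% of the table and both PSMA2 transcripts. PSMB5 and PSMC3, the members with the smallest ratios of dry-off over lactation, were in no profile.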

How the data were processed

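Reads of 9 samples in 3 stages were processed by the authors, and FastQC is the tool that the submitters' processing notes name. The assembler, aligner, counting method and test are not stated in the labels or file headers used here. The mean RPKM of each stage, with a p-value and an FDR per transcript and pair of stages, were deposited by the authors, per the file headers. The deposited transcript descriptions, pathway lists, profiles and correlation numbers are other text or values of the authors. Columns of per-sample values left unused numbered 0.

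With stage means only, no test could be run here. Log2 ratios were recomputed from the deposited means, with nothing added, using Python 3.11.15, numpy 2.4.6, pandas 2.3.3 and, for figures, matplotlib 3.10.9, and the authors' FDR was read at 0.05. The calls and medians were checked on a simulated table. For sums and ranks, the most abundant transcript stood for a subunit or listed gene. Descriptions were matched to symbols by wording, and all 41 subunit symbols are in the RefSeq table.

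The members and lists were chosen with earlier results of these data known. The text names the catalytic subunits, the largest and smallest ratio and highest level of each ring, members that missed the threshold and subunits of several components, and adds further subunits to complete the rings. Alternatives covered thresholds, filters, pseudocounts, transcripts per subunit and centring. Some listed genes are not reported here.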

Additional observations from a re-analysis of the deposited data

How the results depend on the processing

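No paired analysis was possible because the deposited columns are stage means, and for the same reason no sample could be left out. The count of members higher in dry-off than in lactation was 46 of 49 (background 65.9%). It was 48 of 49 at an unadjusted p under 0.05 (background 86.9%) and 44 of 49 with a 2-fold minimum (background 63.5%). A minimum mean of 1 RPKM left it at 46 of 49. It was 42 of 44 with 1 transcript per component and 39 of 40 with 1 transcript per subunit. For the minimum mean, component and subunit settings the share over all transcripts was not computed. By the authors' deposited FDR under 0.01, 13 members passed (background 16.4%), 8 of the core and 4 of the regulatory particle. With the unadjusted p, 15 of 49 members were higher in non-lactation than in lactation (background 41.5%). In non-lactation against dry-off 38 of 49 were lower (background 38.5%).

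Centring moved the medians most. For dry-off over lactation the members' median log2 ratio of 1.82 became −0.27 on the table median, 0.81 on the ribosomal protein median, 1.62 with a pseudocount of 1 RPKM and 1.71 without the inducible beta subunits and PA28 alpha and beta, an alternative chosen after seeing the data. The core median became −0.23, 0.85 and 1.62 with table centring, ribosomal centring and the pseudocount, and the regulatory median −0.48 and 0.60 with the 2 centrings. For non-lactation over lactation the members' median became −0.51, 0.49 and 0.78 with table centring, ribosomal centring and the pseudocount, the core median −0.52, 0.48 and 0.75, and the regulatory median −0.63 and 0.36 with the 2 centrings. For non-lactation over dry-off the members' median became −0.19 and −0.26, the core median −0.34 and −0.41, and the regulatory median −0.15 and −0.22, with table and ribosomal centring. That core median was −0.91 with the pseudocount and −0.92 without the inducible subunits.

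Centred on the table, 28 subunits had negative log2 ratios of dry-off over lactation. They were PSMA4 (−0.27), whose most abundant transcript did not pass the FDR before centring, and PSMA2 (−0.22), PSMA3 (−0.43), PSMA6 (−0.22), PSMA7 (−0.74), PSMB1 (−0.83), PSMB2 (−0.094), PSMB4 (−0.96), PSMB5 (−1.23), PSMB7 (−0.57), PSMC1 (−0.90), PSMC2 (−0.095), PSMC3 (−1.22), PSMC5 (−0.50), PSMC6 (−0.16), PSMD2 (−0.023), PSMD3 (−0.45), PSMD4 (−0.46), PSMD6 (−0.53), PSMD7 (−0.60), PSMD8 (−0.75), PSMD11 (−0.12), PSMD12 (−0.27), PSMD13 (−0.86), PSME3 (−0.046), PSMF1 (−0.69), POMP (−0.89) and SHFM1 (−0.52). Centred on ribosomal proteins, PSMB5 (−0.15) and PSMC3 (−0.14) changed sign. These changes follow from the centring itself. The depth of the samples is unknown, so the precision of the low means, such as those of PSME4, cannot be given.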

Other observations

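All 8 transcripts with other proteasome-related descriptions, outside the pathway list, were highest in dry-off and lowest in lactation. That order was shown by 91.1% of all transcripts. PSMD10, an assembly chaperone of the ATPase ring, was described by 2 transcripts that rose with log2 ratios of dry-off over lactation of 2.41 (FDR 0.0104) and, for the other, 2.30 (FDR 0.0111) in the authors' deposited table. PSMD5, another such chaperone, had 25.5 RPKM in dry-off, 21.5 RPKM in non-lactation and 12.6 RPKM in lactation (log2 1.02, FDR 0.0385 in the authors' deposited table) and lay under the table median. PSMD9 had 18.4, 11.5 and 5.21 RPKM in dry-off, non-lactation and lactation, with an FDR of 0.0504 in the authors' deposited table. Ubiquitin carboxyl-terminal hydrolases, the family of ubiquitin-removing enzymes, were described by 98 transcripts of 65 components. At the authors' FDR under 0.05, 82 of 98 were higher in dry-off than in lactation (background 65.9%) and 1 was lower (background 0.69%). Their median log2 ratio was 2.11, close to the table median of 2.09.

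That lower transcript, chosen after its values were seen, is described as ubiquitin carboxyl-terminal hydrolase 3 and had 0.463 RPKM in dry-off, 12.04 RPKM in non-lactation and 7.31 RPKM in lactation (FDR 0.0497 in the authors' deposited table). Another 3 transcripts of the same component had between 5.99 and 6.53 RPKM in dry-off, between 4.23 and 4.55 RPKM in non-lactation and between 1.86 and 2.02 RPKM in lactation, and rose. Transcripts of 1 component thus differed in direction between the stages, and how the authors divided short reads among them was not tested.

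The authors counted, for each transcript, how many others of the table were correlated with it, by a threshold that is not stated. The inducible beta subunits had between 6767 and 6924 such transcripts, PSMC3 had 4886 (the lowest of the members) and PSME3 had 8022 (the highest of the members), while the median was 7253 over the members and 7544 over the table.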
